A study of Mus musculus with 8 samples.

Results

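The planar cell polarity genes of neural tube closure described here are Vangl1, Vangl2, Celsr1, Celsr2, Fzd3, Fzd6, Prickle1, Dvl1, Dvl2 and Ptk7. They were chosen by name, as core planar polarity genes whose mutants share a failure of neural tube closure with grainyhead mutants. Every probe that the platform annotation assigns to these symbols was read. Of the 10 genes, 9 had a probe, with 12 probes among them, and the annotation gave no probe for Prickle1, so it was not analysed here. All 9 had a probe that passed the filter on low signal described further on, out of 8830 genes tested in all. The arrays, Illumina MouseRef-8 v2.0 bead arrays, compared 4 GRHL2 knockout clones (KO) with 4 GRHL2 wildtype subclones (WT) of V6.5, a mouse embryonic stem cell line, with 1 array per clone. All 8 had been grown for 3 days without LIF and without 2i, the paired MEK and GSK3 inhibitors that hold cells in the naive state, which turns embryonic stem cells into cells that resemble the epiblast. How GRHL2 was disrupted, and where in the gene, was not stated in the labels. Nothing there says that the clones were cultured separately, so p-values measure only the spread between these arrays.

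Planar cell polarity orients cells within the plane of a sheet. In the known mechanism, Frizzled receptors with Dishevelled (the Dvl proteins) collect on the opposite side of a cell from Vangl and Prickle proteins, and the cadherins of the Celsr family join the sides of neighbouring cells. In the mouse neural plate this system drives the narrowing and lengthening of the tissue before the neural folds meet. Loss of Vangl2, of Celsr1, of Ptk7, of Dvl1 with Dvl2, or of Fzd3 with Fzd6 leaves most of the mouse neural tube open. GRHL2 is a grainyhead-like transcription factor of epithelia, and mice without it also fail to close the neural tube.

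Grainyhead factors bind the sequence AACCGGTT, so the members' promoter windows were read for it. RefSeq windows (build GRCm38.p6, 250 bases before to 50 after the start site) were matched for 6 of the 10 genes, Vangl2, Celsr2, Dvl1, Dvl2, Prickle1 and Ptk7, with 7 windows because Prickle1 has 2. On either strand, 0 of the 7 windows held AACCGGTT, against 0.146% of all 32851 windows, and 0 held the looser AACNGGTT, which includes AACCGGTT and was found in 2.09% of all windows. The shorter AACCGG, read as CCGGTT on the other strand and lying within AACCGGTT, was in 1 member window, that of Dvl1, and in 6.83% of all windows. The 250 bases before the start site are shown for Dvl1, the member window with this shorter stretch, and for Vangl2, a window with none of these motifs that belongs to a gene whose groups did not overlap. Capitals mark AACCGG on either strand. No match says only that these letters are not in these windows. Fzd6, Fzd3, Vangl1 and Celsr1 had no window, so their promoters were not read.
Dvl1 (GRCm38.p6, chr4:155847152-155847401, plus strand): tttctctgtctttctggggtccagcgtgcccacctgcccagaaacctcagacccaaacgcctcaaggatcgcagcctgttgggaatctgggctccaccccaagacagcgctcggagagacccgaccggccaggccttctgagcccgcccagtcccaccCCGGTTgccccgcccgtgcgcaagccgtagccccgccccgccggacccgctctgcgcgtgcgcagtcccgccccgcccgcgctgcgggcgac
Vangl2 (GRCm38.p6, chr1:172027296-172027545, minus strand): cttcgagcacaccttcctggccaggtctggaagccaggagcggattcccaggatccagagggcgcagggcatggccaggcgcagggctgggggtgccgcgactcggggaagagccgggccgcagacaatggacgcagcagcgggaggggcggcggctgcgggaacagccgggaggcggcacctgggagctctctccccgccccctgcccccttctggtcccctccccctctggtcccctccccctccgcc

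Intensities were dimmer on the KO arrays before normalization, with a mean of 508 ± 51.5 in KO and 703 ± 32.4 in WT (SD, n = 4 each; exact two-sided permutation p = 0.0286, the smallest that 4 against 4 allows). Values are log2 intensities after background correction and quantile normalization unless another scale is named, and changes are KO minus WT. Without normalization between arrays the median change of all genes was -0.58, against 0.01 with it, so each change is relative to the bulk of genes. Grhl2 was 7.06 to 7.99 on the KO arrays and 8.16 to 9.62 on the WT arrays, with a change of -1.13 (SE 0.30, limma adjusted p = 0.0369), and the groups did not overlap. That call was lost without WT replicate 1, 2 or 4 or KO replicate 2, 3 or 4 (limma adjusted p up to 0.0816). The Grhl2 call was also lost without the filter on low signal (limma adjusted p = 0.0675) and with array brightness in the fit (0.653). All 7 markers of epiblast-like cells were detected on every array. Of these 2 rose, Pou3f1 1.84-fold (limma adjusted p = 0.0145) and Utf1 1.38-fold (0.0190), where 6.55% of all genes rose. The other 5 did not pass, and among them Otx2 (-0.57, limma adjusted p = 0.0711) and Dnmt3b (-0.15) had negative changes. Of 2 tested neuroectoderm markers, Irx3 rose 2.45-fold (limma adjusted p = 0.0160) and Nes had a change of 0.09 (0.872). Pax6 of that list was detected on no array, and Sox1 was not retained. Of 8 feeder fibroblast markers, Col1a1, Col1a2, Col3a1, Postn and Lum were detected on no array. The summed intensity before normalization of the 6 trophoblast markers was 839 to 879 in KO and 1171 to 3451 in WT. That of 5 markers of naive pluripotent cells was 1082 to 1217 in KO and 1483 to 3002 in WT, and that of 5 mesendoderm markers 685 to 704 in KO and 786 to 870 in WT. These sums carry the lower brightness of the KO arrays. After normalization 0 of 4 tested naive markers and 0 of 2 mesendoderm markers passed. Changes of the naive markers ran from -1.18 to 0.01, with a median of -0.19. Those of the mesendoderm markers were -0.59 and 0.44, with a median of -0.08. Of 3 tested trophoblast markers Tfap2c fell, and Elf5 and Hand1 of that list were detected on no array. Tfap2c read 5.46 to 6.25 in KO and 7.59 to 10.86 in WT. WT replicate 3 was the highest array for Tfap2c (10.86) and for the naive markers Esrrb (9.51) and Dppa3 (9.47). The part of these cell states in the results below was not tested. KO replicate 1 was lower than the other KO arrays by a median of -0.43 over genes of chromosome 8, and WT replicate 3 was higher than the other WT arrays by 0.40 over chromosome 6. None of the 10 genes lies on either chromosome, but the naive marker Dppa3 lies on chromosome 6.

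Fzd6, a Frizzled receptor of the planar polarity core, fell in KO and was the only 1 of the 9 measured genes past the threshold. Its values were 6.81, 7.09, 6.80 and 6.93 on KO replicates 1 to 4, against 8.15, 7.64, 7.21 and 7.71 on WT replicates 1 to 4. All KO arrays lay below all WT arrays, and the KO arrays were closer together (SD 0.14 in KO and 0.38 in WT). The change was -0.77 (SE 0.18, 95% interval -1.17 to -0.36, limma adjusted p = 0.0251), or 1.70-fold lower. Before normalization the probe read 188 to 212 in KO and 293 to 487 in WT, and the bead standard errors of these readings were 6.81 to 9.42 in KO and 12.8 to 23.1 in WT. On the authors' deposited normalized values the groups were also apart, at 7.88 ± 0.07 in KO and 8.32 ± 0.24 in WT (SD, n = 4 each), and the authors' deposited table gave a log2 change of -0.43 with an adjusted p of 0.0207. The call was lost without WT replicate 2 (limma adjusted p = 0.0598) or 4 (0.0623) or KO replicate 3 (0.0621) or 4 (0.0546), while the change stayed between -0.92 and -0.61 with any single array left out. With array brightness in the fit the change was -0.67 (SE 0.49) with a limma adjusted p of 0.592. Mean intensity was 447 to 571 on KO arrays and 668 to 744 on WT arrays, so that fit cannot tell brightness and knockout apart.

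Fzd3, the receptor that acts with Fzd6 in neural tube closure, had a change of the same sign that did not pass. It read 5.73, 5.75, 5.83 and 4.93 on KO replicates 1 to 4, and 6.48, 6.12, 5.91 and 5.80 on WT replicates 1 to 4. The groups overlapped by a single pair, KO replicate 3 and WT replicate 4, and KO replicate 4 stood well below the other KO arrays. The change was -0.52 (SE 0.22, 95% interval -1.01 to -0.03, limma adjusted p = 0.137), and -0.31 without KO replicate 4 with an adjusted p of 0.261. The probe was close to background. It was detected (detection p under 0.05) on 3 KO arrays and all 4 WT arrays, with intensities before normalization of 132 to 161 in KO and 190 to 237 in WT, where the lowest intensity of any detected probe was 133 to 143 on KO arrays and 153 to 164 on WT arrays. On the authors' deposited values which carry no background correction, the difference was -0.16.

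Vangl2, the multi-pass membrane protein mutated in the loop-tail mouse, was slightly higher on every KO array than on any WT array without passing the test. It read 9.76, 9.70, 9.81 and 9.63 on KO replicates 1 to 4, and 9.06, 9.58, 9.44 and 9.53 on WT replicates 1 to 4. KO replicate 4 and WT replicate 2 differed by less than the highest and lowest WT arrays did, and WT replicate 1 was the lowest of all. The change was 0.32 (SE 0.13, 95% interval 0.03 to 0.62, limma adjusted p = 0.122), and 0.21 without WT replicate 1. Without normalization between arrays it was -0.39, which is 0.19 above the median of all genes on that scale. On the authors' deposited values Vangl2 averaged 9.87 ± 0.07 in KO and 9.60 ± 0.20 in WT (SD, n = 4 each), and the authors' deposited table gave 0.23 with an adjusted p of 0.137. Its other probe was detected on 0 KO arrays and 3 WT arrays and was not retained. That probe had a change of -0.09, opposite in sign, with groups that overlapped. Vangl1, the close relative of Vangl2, read 5.25 to 5.65 in KO and 5.26 to 5.47 in WT, ranges that overlap almost wholly. Its change was 0.03 (SE 0.12, 95% interval -0.23 to 0.30, limma adjusted p = 0.865). Vangl1 was detected on all 8 arrays, but only just above background, at 137 to 159 in KO and 165 to 182 in WT before normalization.

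**Figure D1:**
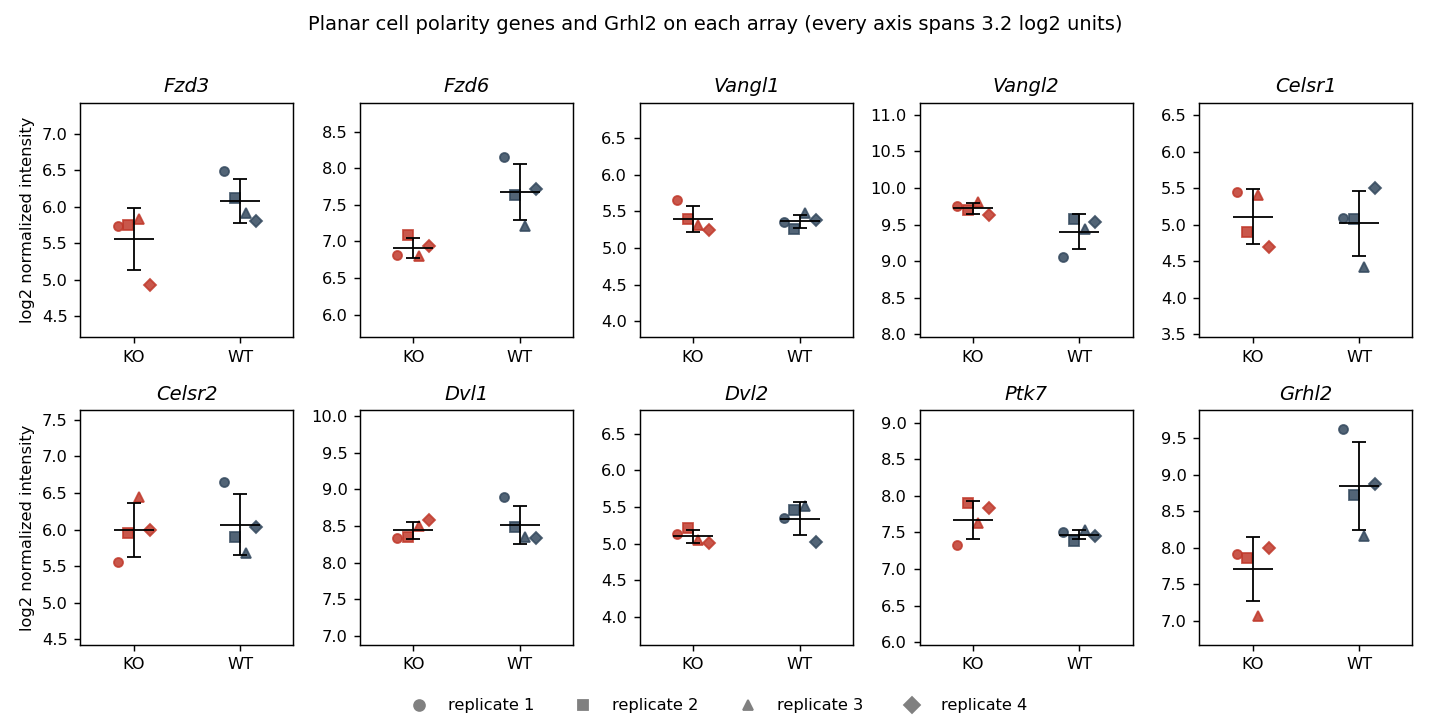
Log2 normalized intensity of the 9 measured planar polarity genes and of Grhl2 in KO (left of each panel) and WT, 1 symbol per array with the mean and SD of 4 arrays; every vertical axis spans 3.2 log2 units. Fzd6 and Grhl2 are lower on all KO arrays, Vangl2 is higher on all KO arrays, and the other genes overlap.

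The cadherins of the Celsr family, which link Frizzled and Vangl complexes of adjoining cells, showed no difference beyond the spread between arrays. Celsr1, the gene mutated in the crash mouse, read 4.70 to 5.45 in KO and 4.42 to 5.50 in WT, with a change of 0.09 (SE 0.24, limma adjusted p = 0.827). It was detected on 2 KO arrays and 3 WT arrays, so its level was at the limit of the arrays. Celsr2 read 5.55 to 6.45 in KO and 5.69 to 6.65 in WT and was detected on all 8 arrays. Its intensities before normalization, 152 to 183 in KO and 180 to 252 in WT, were also close to background. The change of Celsr2 was -0.08 (SE 0.23, limma adjusted p = 0.845). The 95% intervals ran from -0.45 to 0.63 for Celsr1 and from -0.60 to 0.44 for Celsr2. The sign of both turned with single arrays left out, for Celsr2 without WT replicate 1 (0.12) or KO replicate 1 (0.07), and for Celsr1 without WT replicate 3 (-0.11), KO replicate 1 (-0.022) or KO replicate 3 (-0.0062). A second Celsr2 probe was detected on no array.

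Dvl1 and Dvl2 encode Dishevelled proteins, the cytoplasmic partners of Frizzled receptors. Dvl1 read 8.33, 8.35, 8.50 and 8.58 on KO replicates 1 to 4, against 8.89, 8.49, 8.36 and 8.33 on WT replicates 1 to 4. The groups covered the same range apart from WT replicate 1. Its change was -0.08 (SE 0.14, 95% interval -0.39 to 0.24, limma adjusted p = 0.739), and a second, dimmer probe had a change of -0.02 (SE 0.26, limma adjusted p over 12790 retained probes 0.976). Dvl2 read 5.01 to 5.21 in KO and 5.02 to 5.52 in WT, so that WT replicate 4 lay among the KO arrays and the other WT arrays above them. Its change was -0.24 (SE 0.13, 95% interval -0.53 to 0.04, limma adjusted p = 0.223), from intensities of 133 to 145 in KO and 168 to 174 in WT before normalization. Those intensities did not overlap, but neither did the lowest detected intensities of the KO and WT arrays, and Dvl2 was detected on 3 KO arrays.

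Ptk7, a tyrosine kinase-like receptor that binds Wnt ligands and genetically interacts with Vangl2 in the mouse, read 7.33, 7.90, 7.62 and 7.83 on KO replicates 1 to 4, against 7.50, 7.39, 7.53 and 7.45 on WT replicates 1 to 4. Of the KO arrays, 3 lay above all WT arrays and replicate 1 below them, so the groups overlapped. The spread was 0.25 in KO and 0.06 in WT (SD, n = 4 each). The change was 0.20 (SE 0.13, 95% interval -0.10 to 0.50, limma adjusted p = 0.323), and without KO replicate 1 it was 0.32 with an adjusted p of 0.0851. Without normalization between arrays its sign turned, to -0.48 with an adjusted p of 0.0157, and it then lay 0.10 above the median of all genes.

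**Figure D2:**
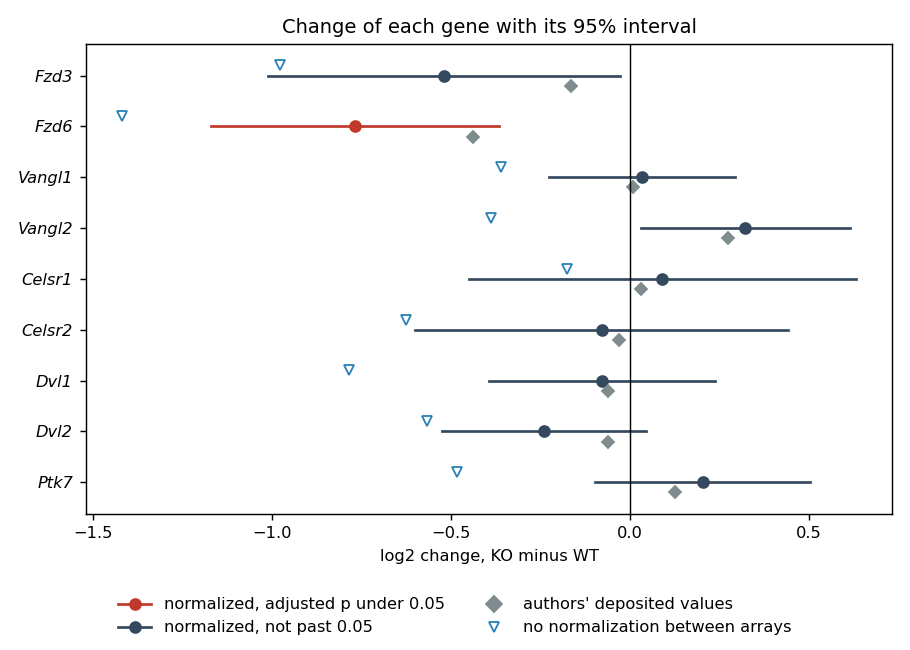
Log2 change (KO minus WT) of each measured gene with its 95% interval from limma, with the same change on the authors' deposited values (diamonds) and without normalization between arrays (triangles). Only the interval of Fzd6 belongs to a gene past the threshold, and without normalization between arrays all 9 changes shift to negative values.

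Read together, 1 of the 9 measured genes fell and 0 rose, where 7.17% of all 8830 genes fell and 6.55% rose (13.7% in either direction). Groups that did not overlap were seen for 2 of the 9, Fzd6 lower and Vangl2 higher in KO, against 23.2% of all genes (10.8% lower and 12.4% higher). Both shares are near those of all genes at this number of members. The median change of the 9 was -0.08, against 0.01 for all genes, with 4 changes above 0 and 5 below. Unadjusted p was under 0.05 for 3 of them, Fzd6, Vangl2 and Fzd3, against 32.0% of all genes. For 7 of the 9 the 95% interval excluded a 2-fold change of the normalized intensity in either direction. The exceptions were Fzd6 and Fzd3, whose lower bounds were -1.17 and -1.01. Of those 7, Celsr1, Celsr2, Dvl2 and Vangl1 read close to background, so their intervals bound the measured intensity and not the change of the transcript. In the authors' deposited table Fzd6 was likewise the only 1 of the 12 member probes with an adjusted p under 0.05, where 8.62% of its 25697 probes had such a p (4.28% lower and 4.34% higher in KO). Tested probe by probe, 1 of 10 retained member probes passed, that of Fzd6, against 13.0% of all retained probes (6.84% lower and 6.17% higher in KO).

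**Figure D3:**
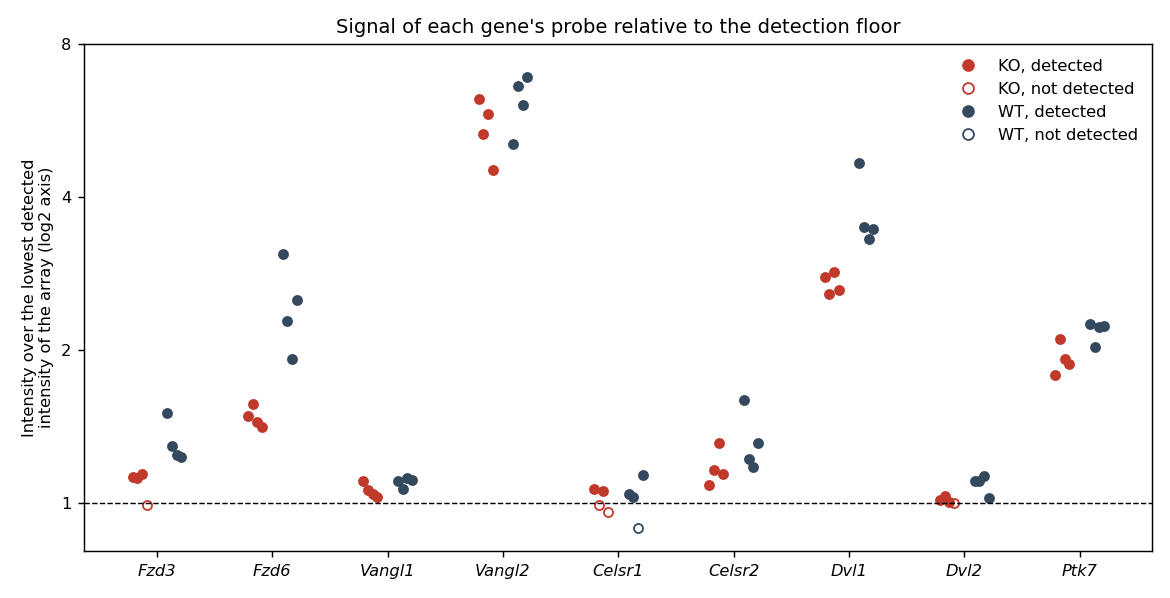
Intensity of the probe of each gene before normalization, divided by the lowest intensity of any detected probe on the same array (log2 axis), with KO left of WT and open symbols for a detection p of 0.05 or more. Celsr1, Celsr2, Dvl2, Vangl1 and Fzd3 lie close to the dashed line at 1, and Vangl2 lies farthest above it.

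Other genes of the same pathway, and other neural tube closure genes, were read from 6 lists of 90 genes. Of these genes 53 were tested, 6 rose and 3 fell, where 6.55% of all 8830 genes rose and 7.17% fell. The list of other closure genes held all 3 that fell and 1 of those that rose. Among other Frizzled receptors, 1 of 4 tested genes, Fzd10, rose. It averaged 9.72 ± 0.20 in KO and 8.88 ± 0.47 in WT (SD, n = 4 each), 1.79-fold higher (limma adjusted p = 0.0339), opposite in sign to Fzd6. Both its other probes had changes of the same sign without passing (0.47 and 0.29), and the call was lost when any array other than WT replicate 3 or 4 was left out (limma adjusted p up to 0.0816) or with the mean of its probes (0.120). Fzd2 and Fzd7 lay near the threshold on either side of 0, at 0.42 (limma adjusted p = 0.0558) and -0.52 (0.0523). Of 2 other core proteins tested, Ankrd6, the mouse relative of fly Diego that binds Dishevelled, rose to 8.43 ± 0.18 in KO, against 7.75 ± 0.27 in WT (SD, n = 4 each), a change of 0.68 (SE 0.15, limma adjusted p = 0.0226). A second Ankrd6 probe rose by 1.25 on the log2 scale (limma adjusted p over probes 0.00316), the third retained probe had a change of 0.40 that did not pass (0.0814), and the gene's call was lost without WT replicate 2 (0.0633) or KO replicate 2 (0.0564).

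Of 9 non-canonical Wnt ligands, co-receptors and modulators tested, Sfrp1 alone passed. This secreted Wnt-binding protein, which with its relatives is required for closure and axis extension in mice, read 8.64, 8.04, 8.38 and 8.07 on KO replicates 1 to 4, and 7.46, 7.41, 7.26 and 7.33 on WT replicates 1 to 4. The groups were well apart, with a 1.89-fold rise (SE 0.15 on the log2 scale, limma adjusted p = 0.00703) that passed with any single array left out (up to 0.0245). The ligand genes Wnt5a and Wnt11 and the receptor gene Ror1 were not retained. Ror2 and Ryk, receptors for Wnt5a, had changes of 0.22 (limma adjusted p = 0.182) and 0.15 (0.367). Of 13 cytoplasmic effectors and regulators, the small GTPase gene Rac1 rose 1.47-fold (limma adjusted p = 0.0486) and the Dishevelled kinase gene Csnk1d 1.39-fold (0.0374), and 0 fell. Each lost its call when any array other than WT replicate 3 was left out, up to an adjusted p of 0.112 for Rac1 and 0.0910 for Csnk1d, and 3 of 5 Csnk1d probes did not pass. Scrib, the scaffold that binds Vangl2, had a change of 0.04 (limma adjusted p = 0.894). In the Fat and Dachsous system, a parallel polarity system of large cadherins, 0 of 2 tested genes passed. Fjx1, a Golgi kinase of that system, was 7.49 ± 0.29 in KO and 7.06 ± 0.39 in WT. The cadherin gene Fat1 was 5.99 ± 0.51 in KO and 6.34 ± 0.17 in WT (SD, n = 4 each). Fat1 lies on chromosome 8, whose genes read low on KO replicate 1, and KO replicate 1 was its lowest array (5.46). Sfrp1 and the marker Irx3, which both rose, lie on chromosome 8 too. KO replicate 1 was the highest array for Sfrp1 (8.64) and the lowest KO array for Irx3 (8.81).

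Among 23 other neural tube closure genes tested, 3 fell and 1 rose, where 7.17% of all genes fell and 6.55% rose. Prss8, the membrane protease prostasin, fell to 7.28 ± 0.53 in KO, against 9.29 ± 0.51 in WT (SD, n = 4 each), 4.00-fold (limma adjusted p = 0.00556). St14, the protease matriptase that acts with prostasin, fell 1.70-fold (limma adjusted p = 0.0407), and Tfap2a, a transcription factor of surface ectoderm and neural crest, fell 2.83-fold (0.0203). Shroom3, the actin-binding protein that constricts the apices of neural plate cells, rose, with a log2 change of 0.59 (SE 0.15, limma adjusted p = 0.0318). The other retained probes of Tfap2a (-0.79, limma adjusted p over probes 0.0503) and Shroom3 (0.38, 0.169) did not pass. The call of St14 was lost without any array other than WT replicate 2 or KO replicate 4 (up to 0.0989), and with both arrays that stood apart left out (0.0863). The call of Shroom3 was lost without any array other than WT replicate 3 or KO replicate 1 (up to 0.0848), and that of Tfap2a without WT replicate 1 (0.0557) or KO replicate 3 (0.0516). Without normalization between arrays the rises of Ankrd6, Rac1, Csnk1d and Shroom3 turned to changes of -0.025, -0.15, -0.18 and -0.089, and those of Fzd10 and Sfrp1 shrank to 0.12 and 0.23, all of them above the median of all genes of -0.58. The list median was -0.07 for these closure genes and 0.04 over the 53 tested genes of the pathway and closure lists, against 0.01 for all genes.

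**Figure D4:**
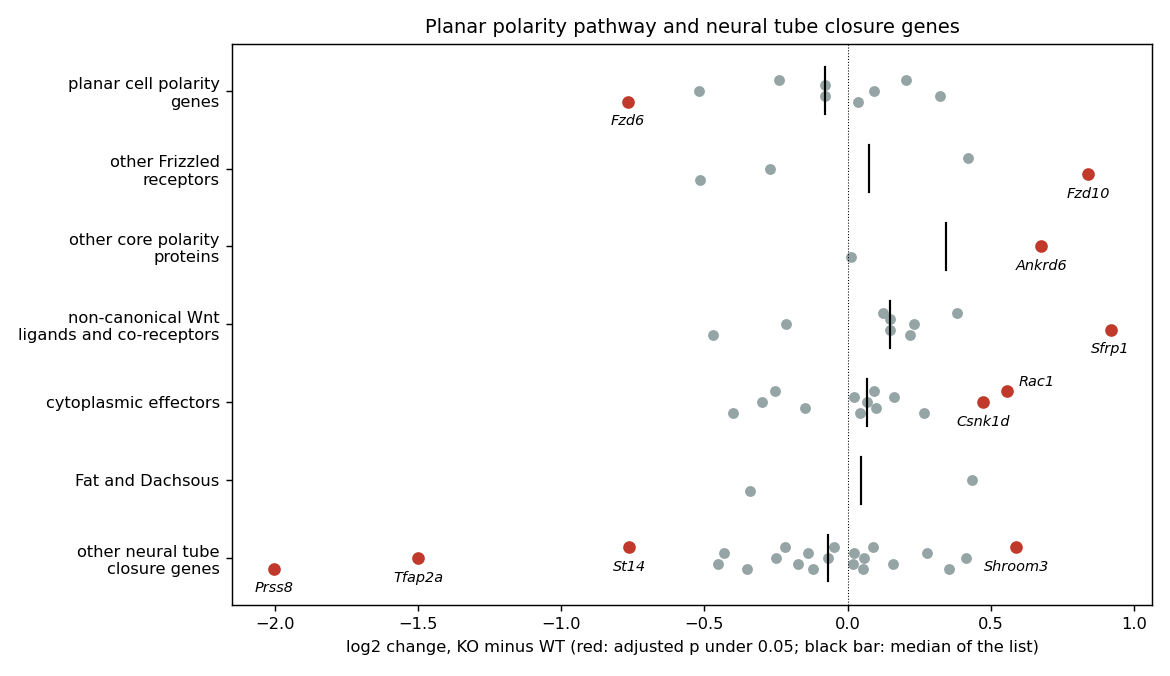
Log2 change (KO minus WT) of each tested gene in the planar polarity list and in 6 lists of other pathway and closure genes. Red marks a limma adjusted p under 0.05, and a black bar the median of each list. Fzd6, Prss8, St14 and Tfap2a are the genes that fell, and the medians of the lists lie between -0.08 and 0.34.

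In the RefSeq gene table Fzd6 and Grhl2 are both on chromosome 15, with 9 protein-coding genes between them, an order looked up after the values were seen. Of these 9 genes 4 were tested and 0 passed, with changes of -0.27 for Rrm2b, 0.53 for Klf10, -0.14 for Azin1 and 0.40 for Atp6v1c1. In a wider window, of the 10 genes before Grhl2 and the 20 after it, 16 genes other than Grhl2 and Fzd6 were tested and 2 fell, Dcaf13 by 0.72 (limma adjusted p = 0.0403) and Oxr1 by 0.68 (0.0251), with a median of -0.21, where 7.17% of all genes fell. Whether the position of Fzd6 has a part in its change was not tested. Celsr1 and Prickle1 are on chromosome 15 too, outside this window. On the WT arrays Fzd6 and Grhl2 had the same order from array to array, highest on replicate 1 (8.15 and 9.62), then replicate 4 (7.71 and 8.87), replicate 2 (7.64 and 8.72) and replicate 3 (7.21 and 8.16). On the KO arrays the order differed, and replicate 3 was lowest for both (6.80 for Fzd6 and 7.06 for Grhl2). The genes whose centred profiles over the 8 arrays were nearest to that of Fzd6 were Zfp317, Prorsd1 and Id3. Their root mean square differences were 0.0834, 0.102 and 0.111 on the log2 scale, against a median of 0.512 for all genes. Zfp317, on chromosome 9, had the same WT order as Fzd6 and Grhl2 (9.58, 9.11, 8.94 and 8.70 on replicates 1, 4, 2 and 3), and Prorsd1 and Id3 did not. Fzd2 (6.74, 6.64, 6.56 and 6.29) and Fjx1 (7.60, 7.02, 6.96 and 6.66) also had that WT order. Their changes were above 0, at 0.42 and 0.43, and did not pass. How many of all genes share that order was not counted.

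**Figure D5:**
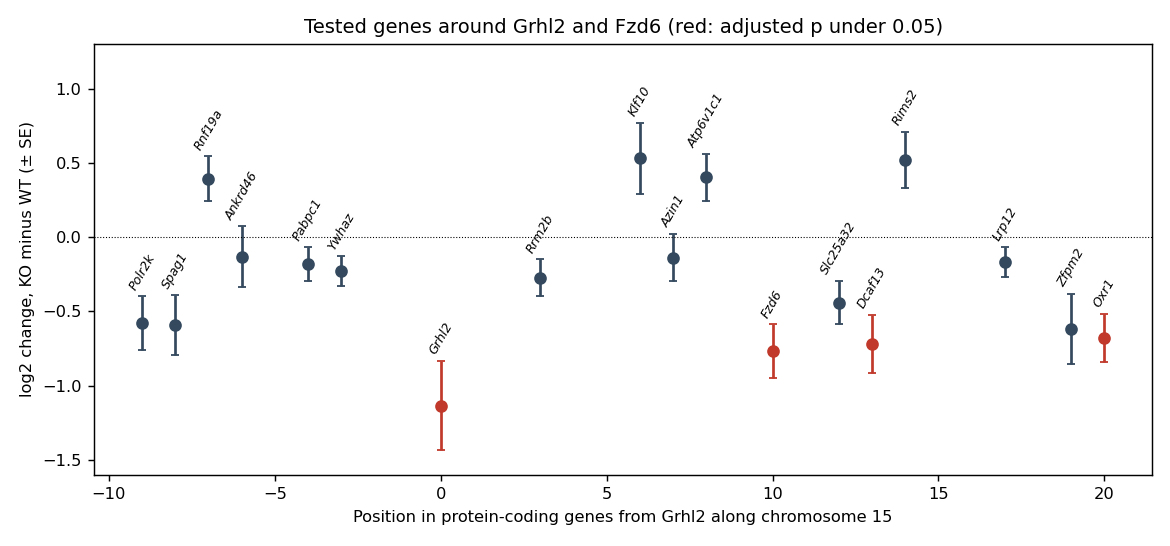
Log2 change (KO minus WT, with SE) of the tested genes around Grhl2, by their place in protein-coding genes along chromosome 15, in red where the limma adjusted p was under 0.05. Grhl2 at 0 and Fzd6 at 10 are lower in KO, and none of the 4 tested genes between them is past the threshold.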

How the data were processed

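The authors deposited a table of 25697 probes on 8 arrays that, per the file headers, gives a bead-averaged intensity with its error, a count of beads and a detection p-value. From the values, intensities were neither background-corrected nor normalized. The authors also deposited log2 values that equal quantile-normalized log2 intensities without background correction, and a comparison table of log2 fold changes, p-values and moderated scores. Per the submitters' processing notes, limma was used. The series value table was identical to the normalized table.

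The function neqc (limma 3.58.1 under R 4.3.3, offset 16) was applied to the intensities for background correction and quantile normalization. Detection on 4 or more arrays, at p under 0.05, left 12790 probes. The retained probe with the highest mean stood for a gene. The platform annotation gave 1 symbol to 23978 probes and none to 1719. KO was compared with WT by limma's lmFit and eBayes, two-sided, with Benjamini-Hochberg adjustment over 8830 genes and a threshold of 0.05. Arrays left out were dropped before normalization and filtering. The fit was tested on simulated data. The number of arrays limits the precision.

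Members and lists were chosen with earlier results of these data known. Named genes are Grhl2, every member, and the 3 profiles nearest to each member past the threshold. Each list adds up to 4 of the largest changes among its genes past the threshold, or its 2 brightest. Fzd2, Fzd7, Ror2, Ryk, Scrib, Wnt5a, Wnt11, Ror1, Irx3, Nes, Sox1, Otx2, Dnmt3b, Tfap2c, Esrrb, Dppa3 and the neighbours of Grhl2 were added after their values were seen. Alternatives covered background, normalization, filter, probe choice, weights, moderation, clone number, brightness and arrays left out.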

Additional observations from a re-analysis of the deposited data

Results flagged for a closer look

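In 21 genes named as members or by rule, the 4 arrays of each group were checked for an array far from the other 3, and 2 of 42 groups were marked, where chance marks about 1 in 20 groups. Fzd3 read 4.93 on KO replicate 4, against 5.73 to 5.83 on the other KO arrays, and its probe was not detected on that array. Grhl2 read 7.06 on KO replicate 3, against 7.86 to 7.99 on the other KO arrays.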

How the results depend on the processing

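Over 23 alternatives, the sign of Fzd6 was negative in all and its call was lost in 5 of them. Members past the threshold numbered 6 without normalization between arrays (Celsr2, Fzd3, Fzd6, Dvl1, Dvl2 and Ptk7, all lower, the last reversed at -0.48) and 3 with median scaling over all probes (Fzd3, Fzd6 and Dvl1), 0 with array brightness as a covariate, and 0 to 1 with an array left out (0 without WT replicate 2 or 4 or KO replicate 3 or 4); the counts of retained member probes were also 6, 3, 0 and 0 to 1, with 0 without WT replicate 1 as well. The number of genes that changed was 1211, and it was 5771 without normalization between arrays, 3607 with median scaling over all probes, 1879 with median scaling over retained probes (an alternative chosen after seeing the data), 2175 with array weights, 671 in the replicate block fit, 16 with array brightness as a covariate and 507 to 1433 with an array left out (507 to 640 without WT replicate 1, 2 or 4 or KO replicate 2, 3 or 4, 1433 without WT replicate 3 and 1176 without KO replicate 1). The calls were 36 higher and 5735 lower without normalization, 133 and 3474 with scaling over all probes, 1252 and 627 with scaling over retained probes, against 578 and 633. Of 229 values of the other named genes under these alternatives, 155 kept their sign and call and 70 lost the call. Calls of other named genes that turned sign without normalization were Ankrd6 (-0.025), Rac1 (-0.15), Csnk1d (-0.18) and Shroom3 (-0.089). The cause of these differences between alternatives was not tested.

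Clone numbers did not pair the arrays: same-numbered KO and WT arrays deviated from their group means with correlations of -0.077 to 0.046 across genes, and only number 3 was the best partner of its own number. No slide was given as a label, so no slide block was run. The replicate block fit ended the calls of Tfap2a (limma adjusted p = 0.0573), Rac1 (0.0540) and Csnk1d (0.0778). Signal over background limited Celsr1, Celsr2, Dvl2, Vangl1 and Fzd3, and the change of Fzd3 was -0.52 with background correction and -0.16 without it.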
